A study of Bos taurus
Mus musculus and Bos taurus and Mus musculus with 5 samples.

Results

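Inside a heterokaryon, a cell made by fusing 2 cells of different kinds, 2 nuclei share 1 cytoplasm without merging. Here the cells were of different species, so sequenced transcripts could be assigned to the bovine or the mouse genome and 1 library could hold reads of the same gene from both genomes. The genes described are those that carried the same name, ignoring case, in the bovine and the mouse table and that reached 10 reads per 1000000 reads of shared names (RPM) or more in bovine or mouse transcripts of the 24 h library, each scaled to its own total. Of 12081 shared genes, 7482 met that rule. Both species reached 10 RPM for 5139 of them, bovine transcripts alone for 1082 and mouse transcripts alone for 1261. At the border, ABCA3 was inside with 10.3 RPM in its higher species and ZZEF1 outside with 9.80 RPM.

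Bovine fetal fibroblasts (bFF) from 1 male fetus were fused to mouse embryonic stem cells (mESC) of 1 C57BL/6 line. Heterokaryons were collected 24 h after fusion, with later collections at 48 and 72 h, and unfused bFF and unfused mESC were the controls. The stem cells had been kept at 37 °C on a layer of irradiated mouse fibroblasts, in medium with 1 µM PD0325901, an inhibitor of the kinase MEK, and 3 µM CHIR99021, an inhibitor of the kinase GSK3, and the fibroblasts at 38.5 °C in fibroblast medium. After 4 h of co-culture and 2 min of polyethylene glycol with DMSO, heterokaryons stayed at 37 °C in medium for stem cells that lacked both inhibitors. The 24 h ratio therefore compares transcripts of 2 genomes under the same culture, while the control ratio compares cells kept apart. Every group is 1 library of 200 sorted cells, so a difference between groups has no replicate check unless a test is named. A bovine change against bFF joins fusion to a new medium and temperature, and a mouse change against mESC joins it to the loss of the inhibitors, and these parts cannot be told apart.

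Fusion of a somatic cell to a pluripotent cell is a classic way to ask how far factors of one cell can act on the genome of the other. The gene for Oct4, POU5F1, is silent in fibroblasts and central to the stem cell state, whereas collagens, vimentin and actin-bundling proteins belong to the fibroblast. Transcripts present at 24 h can also have been made before fusion and carried into the shared cytoplasm, and these data cannot tell old transcripts from those made after it.

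The 24 h library held 928978 bovine and 2041468 mouse reads in shared genes, against 2488379 for bFF and 2920783 for mESC. Bovine reads were 28.8% of all reads assigned at 24 h (exact binomial 95% interval 28.8 to 28.9%). The share of shared-gene reads estimated to be assigned to the wrong species, from the reads that each control put into the other species' table, was 4.26% for bovine and 0.797% for mouse transcripts at 24 h. It reached 10% or more of a gene's reads in 775 of the 7482 genes, and such genes are named below only with that share. Some fibroblast and stem cell markers were confined to 1 species: COL1A2 and COL3A1 had no mouse reads, and SOX2 and SALL4 no bovine reads, in either the 24 h library or the controls. Other markers were not confined in this way. POU5F1 had 23 bovine reads at 24 h, and DCN had 2 mouse reads at 24 h and 2 in mESC. VIM, COL1A1 and TDH also had reads in the other species, as given below. Among markers of other cells, the blood genes had no reads in bovine or mouse transcripts at 24 h, and the muscle genes summed to 11.8 RPM in bovine and 18.1 RPM in mouse transcripts, against 80.4 RPM in bFF and 14.4 RPM in mESC. Neural genes summed to 48.4 RPM in bovine and 19.6 RPM in mouse transcripts at 24 h, against 10.4 RPM in bFF and 21.9 RPM in mESC, and TUBB3, a tubulin of neurons, was the 1 tested by edgeR and had a higher bovine to mouse ratio in heterokaryons (adjusted p = 0.0439, and 0.141 without the 48 h library, and 0.109 without the 72 h library, and 0.0854 with the library as a block). Endothelial genes summed to 12.9 RPM in bovine and 53.4 RPM in mouse transcripts at 24 h, against 1.21 in bFF and 142 RPM in mESC. Epithelial markers were not absent from the fibroblast control. KRT18 had 334 RPM in bFF and 10.3 RPM in mESC, and CDH1 had 8.04 RPM in bFF and 78.4 RPM in mESC. KRT8, also high in bFF, is described with the keratins below.

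Bovine and mouse transcripts of the same gene lay closer together at 24 h than did bFF and mESC. The ratio of bovine to mouse transcripts, taken as log2 of RPM + 1, had an SD of 2.20 over the 7482 genes at 24 h, against 2.41 for bFF over mESC. At 24 h 3384 genes (45.2%) were within 2-fold in the 2 species, against 2954 genes (39.5%) in the controls. At least 4-fold higher in bovine transcripts were 968 genes (12.9%) and in mouse transcripts 1086 genes (14.5%) at 24 h. In the controls 1161 genes (15.5%) were at least 4-fold higher in bFF and 1344 (18%) in mESC. The Spearman correlation across genes, given as a description, was 0.557 between bovine and mouse transcripts at 24 h and 0.497 between bFF and mESC. The members were chosen on their 24 h level, gene lengths and annotations differ between the species and enter both ratios alike, and 1 library per group allows no test of the difference in spread.

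**Figure D1:**
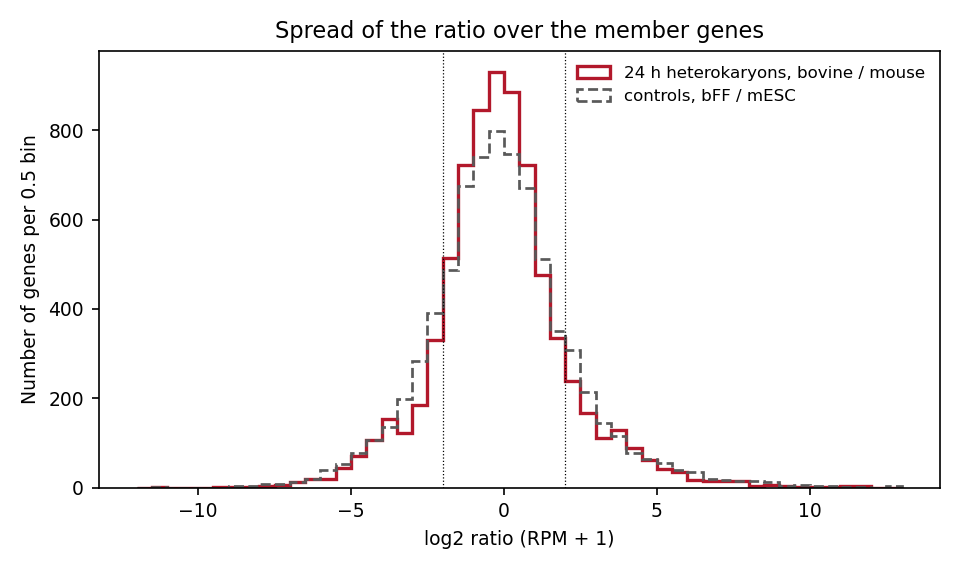
Number of genes (vertical axis, per bin of 0.5) by the log2 ratio of RPM + 1 (horizontal axis) for bovine over mouse transcripts in 24 h heterokaryons (solid red) and for bFF over mESC (dashed grey), over the 7482 genes; dotted lines mark 4-fold. The red curve is higher near 0 and lower beyond the dotted lines, with 2054 genes at least 4-fold apart at 24 h against 2505 in the controls.

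Each genome nevertheless kept most of its own pattern. Across genes the bovine transcripts at 24 h had a Spearman correlation of 0.886 with bFF, and the mouse transcripts 0.936 with mESC. The bovine change against bFF and the mouse change against mESC showed a correlation across genes of 0.002. Of the 1344 genes at least 4-fold higher in mESC, 787 were still at least 4-fold higher in mouse transcripts at 24 h, 189 lay within 2-fold and 3 were at least 4-fold higher in bovine transcripts. These 3, CD3D, CD3G and RBAK, had 20 or fewer bovine reads at 24 h and were named after their values were seen. Of the 1161 genes at least 4-fold higher in bFF, 739 stayed at least 4-fold higher in bovine transcripts, 169 lay within 2-fold and 0 were at least 4-fold higher in mouse transcripts. In the other direction, 172 of the 2954 genes within 2-fold in the controls were at least 4-fold apart at 24 h, 68 with bovine and 104 with mouse transcripts higher.

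**Figure D2:**
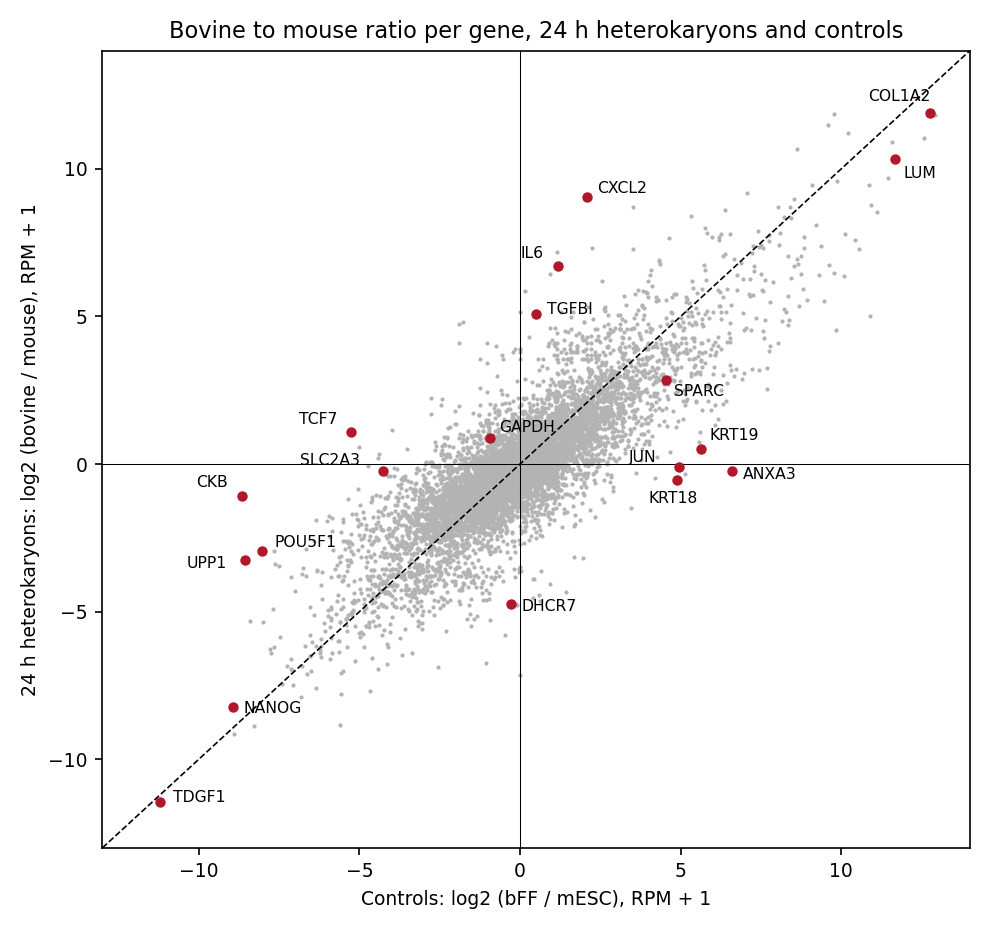
Each grey point is 1 of 7482 genes, with the log2 ratio of bovine to mouse transcripts at 24 h on the vertical axis and of bFF to mESC on the horizontal axis (both RPM + 1); red points are named genes and the dashed line marks equal ratios. TDGF1 and COL1A2 sit near the dashed line at its 2 ends, CKB, POU5F1 and SLC2A3 well above it, and KRT19, JUN and ANXA3 well below it.

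The shift of a gene is its 24 h ratio minus its control ratio, on the log2 scale, so a positive shift means more bovine relative to mouse transcript than in the unfused cells. It was above 0 for 3684 genes and below 0 for 3798. The shift was at least 4-fold upward for 442 genes (5.91%) and at least 4-fold downward for 474 (6.34%). Of the upward shifts, for 296 of 442 genes bovine transcripts alone were at least 2-fold higher than in bFF, for 28 mouse transcripts alone were at least 2-fold lower than in mESC, and for 104 both held. Of the downward shifts, bovine transcripts alone were at least 2-fold lower for 198 of 474 genes, mouse transcripts alone at least 2-fold higher for 144, and both held for 124. Over all members bovine transcripts alone were at least 2-fold higher for 831 genes and lower for 752, and mouse transcripts alone higher for 473 and lower for 281. The rule needs 10 RPM at 24 h in 1 species and so leaves out genes that were low in both by then, which lowers the counts of falls. Of the upward genes 108 (24.4%) had 10% or more of their reads estimated as wrongly assigned, and of the downward genes 60 (12.7%), against 775 (10.4%) of all members. The part of wrong assignment in these counts was tested by subtracting the estimated reads, which left 410 upward and 470 downward genes.

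A test was possible with the 3 heterokaryon libraries in 1 fit. The edgeR quasi-likelihood test of the species by fusion interaction asked whether the bovine change against bFF differed from the mouse change against mESC, and it uses the spread between 24, 48 and 72 h in place of replicates and assumes that the single controls vary as much. Of 8120 genes tested, 140 (1.72%) had a higher bovine to mouse ratio in heterokaryons than in the controls and 86 (1.06%) a lower one at a Benjamini-Hochberg adjusted p under 0.05. With TMM scaling, as in that test, the median 24 h ratio of the members moved to -0.02 from -0.18 and the median shift to -0.06 from -0.02. The counts depend on which library is left out: 406 and 350 without the 24 h library, 21 and 10 without the 48 h library, and 68 and 44 without the 72 h library. Below, a ratio is said to rise or fall only where this test called it, and adjusted p-values are from this edgeR test. Counts on the gene lists are to be read beside the shares over all genes. At least 4-fold higher were 12.9% in bovine and 14.5% in mouse transcripts at 24 h, and 15.5% in bFF and 18% in mESC. Shifts of at least 4-fold held for 5.91% upward and 6.34% downward, and calls for 1.72% higher and 1.06% lower. Of 85 called genes that are on the gene lists or under the naming rule, 84 were called without the 24 h library, 26 without the 48 h library and 55 without the 72 h library. Called each time were 25, among them CKB, UPP1, SLC2A3, SLC2A1, NDUFA4L2, MCM5, KRT18, KRT19 and JUN.

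Most pluripotency factors stayed on the mouse side. Of the 19 members on the list of core and naive pluripotency factors, 16 were at least 4-fold higher in mouse transcripts at 24 h, and 17 in mESC, and the ratio had shifted up at least 4-fold for 6 of the 19. The median ratio of the list was -4.95 at 24 h and -6.52 in the controls on the log2 scale, against -0.18 and -0.21 over all members. NANOG and SOX2, which with Oct4 form the core network, were mouse only. NANOG had 0 RPM in bovine and 300.3 RPM in mouse transcripts at 24 h, against 0.804 in bFF and 887 in mESC. SOX2 had 0 bovine reads and 88.7 RPM in mouse transcripts at 24 h, against 0 in bFF and 91.1 RPM in mESC. With a floor of 3 reads in the bovine library, SOX2 was at least 27.5-fold and NANOG at least 93.0-fold lower in bovine than in mouse transcripts at 24 h. TDGF1, a co-receptor for Nodal, had 0 bovine and 5638 mouse reads at 24 h, against 0 in bFF and 6846 in mESC, which makes it at least 855-fold lower in bovine transcripts. In bovine transcripts these 3 genes were at or under that floor both at 24 h and in bFF.

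POU5F1 stayed higher in mouse transcripts but had bovine reads at 24 h. In the files it starts at chromosome 23, position 27769893 in cattle (bosTau8) and chromosome 17, position 35506032 in mouse (GRCm38). It had 23 bovine reads at 24 h, or 24.8 RPM, and 197 RPM in mouse transcripts, against 0 bFF reads and 261 RPM in mESC. The bovine transcript was thus present at 24 h and not detected in bFF, and it still stood 7.97-fold below the mouse transcript in RPM (95% counting interval 5.24 to 12.7). The ratio was -2.95 at 24 h and -8.03 in the controls, a shift of 5.09 (95% counting interval 3.33 to 11.42). The mESC library put no reads into the bovine table for this gene. Bovine transcripts were 2.38 RPM at 48 h and 4.10 RPM at 72 h, and the interaction missed the threshold of edgeR (adjusted p = 0.0851).

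Of the list, CD9, TFCP2L1 and TDH were called higher, and 2 of them without the 48 h or without the 72 h library. CD9, a tetraspanin on stem cells and many other cells, had 2756 RPM in bovine and 2321 RPM in mouse transcripts at 24 h, against 454 in bFF and 2252 RPM in mESC. Its ratio rose by 2.12 (SE 0.51, adjusted p = 0.045, and 0.128 without the 48 h library, and 0.0598 without the 72 h library), and CD9 and KLF4 were the 2 members of the list within 2-fold at 24 h, with 28.2% of the bovine KLF4 reads estimated as wrongly assigned. TFCP2L1 and TDH were called as well, yet for TFCP2L1 162% and for TDH 60.4% of the bovine reads were estimated as wrongly assigned mouse reads, so their bovine level cannot be read.

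Matrix genes of the fibroblast remained bovine. Of 30 matrix members, 25 were at least 4-fold higher in bovine transcripts at 24 h and 28 in bFF, against 12.9% and 15.5% of all members. The median ratios were 6.04 and 6.17. No mouse reads were counted at 24 h for 12 of the 30. COL1A2, a chain of type I collagen, had 3796 RPM in bovine transcripts and 0 mouse reads at 24 h, against 6987 RPM in bFF and 0 in mESC, and was at least 2583-fold higher in bovine transcripts by the floor of 3 mouse reads. COL3A1, type III collagen, had 3651 RPM in bovine transcripts and 0 mouse reads, against 7779 RPM in bFF and 0 in mESC. For the proteoglycans lumican and decorin the bovine level was 1285 RPM at 24 h against 3241 in bFF (LUM) and 4212 against 10325 (DCN), with 0 and 2 mouse reads at 24 h. The bovine log2 change against bFF was -0.88 for COL1A2, -1.09 for COL3A1, -1.33 for LUM and -1.29 for DCN, and in the mouse transcripts none of the 4 genes passed 2 reads.

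Within the matrix list TGFBI and COL4A1 were called in opposite directions. In all edgeR called 1 of 30 tested higher and 3 lower, against 1.72% and 1.06% of all genes tested. The counts were 1 and 1 without the 48 h library, and 1 and 6 without the 24 h library. TGFBI, a secreted adhesion protein induced by TGF-beta, had 396 RPM in bovine and 10.8 RPM in mouse transcripts at 24 h, against 9.64 in bFF and 6.51 in mESC, and its ratio rose by 6.22 (SE 1.02, adjusted p = 0.0104). COL4A1, a basement membrane collagen, had 127 RPM in bovine and 30.9 RPM in mouse transcripts, against 135 in bFF and 1.03 in mESC. At 24 h the bovine level of COL4A1 hardly differed from bFF while the mouse level was higher, with 3 reads in mESC. At 48 and 72 h bovine transcripts were lower, at 45.3 and 41.0 RPM, with 18.5 and 7.71 RPM in mouse transcripts. Over the 3 times the COL4A1 ratio fell by 5.07 (SE 1.21, adjusted p = 0.0452, and 0.129 without the 48 h library). COL1A1 fell too, but 85.8% of its 40 mouse reads were estimated as wrongly assigned.

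Receptors, transcription factors and other cell markers of fibroblasts stood closer in the 2 species at 24 h than in the controls. Of 19 members, 13 were at least 4-fold higher in bovine transcripts at 24 h and 16 in bFF, against 12.9% and 15.5% of all members. At least 4-fold shifts were downward for 10 and upward for 0, against 6.34% and 5.91% of all members. The median ratio was 3.68 at 24 h against 6.50 in the controls. THY1, a surface glycoprotein of fibroblasts, had 448 RPM in bovine and 4.41 RPM in mouse transcripts at 24 h, against 1077 in bFF and 0 in mESC, and its ratio fell (adjusted p = 0.02, and 0.0796 without the 48 h library). VIM, the intermediate filament of mesenchymal cells, had 2807 RPM in bovine and 173 RPM in mouse transcripts, against 5014 in bFF and 21.6 in mESC. Its shift of -3.79 at 24 h was -1.59 at 48 h and -1.23 at 72 h, and it did not pass the test (adjusted p = 0.149). PDGFRA, a receptor for platelet-derived growth factor, was called lower (adjusted p = 0.0129, and 0.0709 without the 48 h library), with bovine transcripts at 62.4 RPM at 24 h against 458 in bFF, and 15.5% of its 12 mouse reads were estimated as wrongly assigned. Over the whole list the mouse reads summed to 345 RPM at 24 h, against 85.3 RPM in mESC, with a median mouse change of 1.23, and 6 of its 25 genes with a shared name had no mouse reads at 24 h. The stem cells had been kept on mouse fibroblasts, whose part in these mouse values was not tested. edgeR called 3 of 20 tested genes of this list lower and 0 higher, against 1.06% and 1.72% of all genes tested. It called 1 lower without the 48 h library, and 6 lower and 1 higher without the 24 h library.

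The bovine to mouse ratio of cytoskeletal genes dipped at 24 h, in its values only. The median bovine change against bFF was -0.20 and the median mouse change against mESC 0.57. In mouse transcripts 22 of 27 members stood above mESC and 4 below, and in bovine transcripts 10 stood above bFF and 17 below. Of 27 contractile and tropomyosin members, 9 were at least 4-fold higher in bovine transcripts at 24 h and 17 in bFF. They had a median shift of -0.95 at 24 h, 0.14 at 48 h and 0.65 at 72 h, against -0.02, -0.11 and -0.11 over all members. TAGLN, the actin-bundling protein transgelin, had 780.4 RPM in bovine and 16.2 RPM in mouse transcripts at 24 h, against 1419 in bFF and 1.03 in mESC, with shifts of -3.94 at 24 h, -0.51 at 48 h and 0.23 at 72 h. TPM2, a tropomyosin, had 362 RPM in bovine and 126 RPM in mouse transcripts, against 1635 in bFF and 21.9 in mESC. None of the 27 genes was called by edgeR, which reads the 3 times together; 6 had an unadjusted p under 0.05, and DESeq2 called 2. Without the 24 h library edgeR called 4 higher and 2 lower.

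On the glycolysis list the bovine transcripts drew level with the mouse in the median. All 20 members of the list had a shift above 0, against 3684 of 7482 over all members. The shift was at least 4-fold upward for 8 of the 20. Of the 20, 11 were called higher and 0 lower by edgeR (3 higher without the 48 h library). The median ratio was 0.10 at 24 h and -1.73 in the controls, so the bovine transcripts stood even with the mouse where bFF had stood below mESC. The median bovine change against bFF was 2.02 and the median mouse change against mESC 0.38. GAPDH, a glycolytic dehydrogenase, had 23433 RPM in bovine and 12844 RPM in mouse transcripts at 24 h, against 5099.7 in bFF and 9664 RPM in mESC, and its ratio rose by 2.06 (SE 0.32, adjusted p = 0.00814, and 0.0709 without the 48 h library). SLC2A3, a glucose transporter, had 582 RPM in bovine and 692 RPM in mouse transcripts, against 28.9 in bFF and 575 in mESC. That put it within 2-fold at 24 h after a control ratio of -4.27, and its ratio rose by 4.64 (SE 0.48, adjusted p = 0.000788). The other glucose transporter SLC2A1 kept a mouse excess, with 143 RPM in bovine and 615 RPM in mouse transcripts, against 5.22 in bFF and 204 in mESC (adjusted p = 0.00335). SLC16A3, which exports lactate, had 46.3 RPM in bovine and 39.7 RPM in mouse transcripts, against 0 in bFF and 20.2 RPM in mESC (adjusted p = 0.00335). Among the members not called, PFKM and LDHB had shifts of 0.11 and 0.19.

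Genes induced by low oxygen split by gene. Of 22 members, 7 shifted up and 2 down by at least 4-fold, against 5.91% and 6.34% of all members. edgeR called 5 higher and 1 lower (3 and 0 without the 48 h or the 72 h library), against 1.72% and 1.06% of all genes tested. Both species stood above their own control, with median changes of 1.32 for bovine and 1.23 for mouse transcripts. NDUFA4L2, a mitochondrial protein induced by hypoxia, had 522 RPM in bovine and 234 RPM in mouse transcripts at 24 h, against 2.41 in bFF and 53.1 in mESC, and its ratio rose by 6.74 (SE 0.81, adjusted p = 0.00257). ANKRD37 had 111 RPM in bovine and 74.0 RPM in mouse transcripts, against 0 bFF reads and 31.5 RPM in mESC (adjusted p = 0.00335). BNIP3, a mitophagy receptor, had 1017 RPM in bovine and 1144 RPM in mouse transcripts, against 50.2 in bFF and 477 in mESC (adjusted p = 0.00403). ADM, the vasoactive peptide adrenomedullin, went the other way, with 119 RPM in bovine and 58.8 RPM in mouse transcripts, against 111 in bFF and 6.85 in mESC (adjusted p = 0.0439, and 0.0709 without the 48 h library, and 0.0648 without the 72 h library).

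Cell division genes shifted toward bovine transcripts without drawing level. For DNA replication and S phase, 12 of 32 members were at least 4-fold higher in mouse transcripts at 24 h and 26 in mESC, the median ratio was -1.79 against -3.65, and edgeR called 6 of 32 higher and 0 lower (3 higher without the 48 h or the 72 h library, 10 without the 24 h library). For mitosis, 9 of 27 members were at least 4-fold higher in mouse transcripts at 24 h and 25 in mESC, the median ratio was -1.69 against -3.67, and edgeR called 14 of 27 higher and 0 lower (4 higher without the 48 h library, 24 without the 24 h library). Both species contributed for mitosis, with a median bovine change of 1.56 and a median mouse change of -0.67. MCM5, a subunit of the replicative helicase, had 82.9 RPM in bovine and 191 RPM in mouse transcripts at 24 h, against 5.63 in bFF and 269 in mESC, and its ratio rose by 3.82 (SE 0.50, adjusted p = 0.00335). CDK2, a kinase that drives S phase, had 34.4 RPM in bovine and 50.9 RPM in mouse transcripts, against 8.84 in bFF and 123 in mESC, and came within 2-fold (adjusted p = 0.0171, and 0.078 without the 48 h library). BUB1, a spindle checkpoint kinase, had 36.6 RPM in bovine and 120.0 RPM in mouse transcripts, against 5.63 in bFF and 226 in mESC (adjusted p = 0.0155, and 0.0709 without the 48 h library). LIG1, a DNA ligase, had a ratio of -4.75 at 24 h and -4.34 in the controls. The median shift was 1.79, 0.63 and 1.03 at 24, 48 and 72 h for replication and 1.95, 2.33 and 2.32 for mitosis.

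Among single genes CKB, TCF7 and UPP1 also shifted toward bovine transcripts, and TCF7 was higher in bovine than in mouse transcripts at 24 h. CKB, the brain type creatine kinase (bovine chromosome 21, start 69809413; mouse chromosome 12, start 111669355), had the highest shift of the genes at 50 RPM or more. It had 544 RPM in bovine and 1144 RPM in mouse transcripts at 24 h, against 4.42 in bFF and 2201 in mESC, so the bovine level was higher and the mouse level lower than in the control. The shift was 7.59 (95% counting interval 6.98 to 8.67), and the ratio rose by 6.91 over the 3 times (SE 0.92, adjusted p = 0.00335). TCF7, a transcription factor of the WNT pathway, had 70.0 RPM in bovine and 32.3 RPM in mouse transcripts, against 0 bFF reads and 37.7 RPM in mESC (adjusted p = 0.00796). It was 2.16-fold higher in bovine transcripts at 24 h (95% counting interval 1.51 to 3.10). The TCF7 ratio was -5.27 in the controls and 1.09, 0.15 and -0.28 at 24, 48 and 72 h. UPP1, uridine phosphorylase, had 173 RPM in bovine and 1649.8 RPM in mouse transcripts, against 2.01 in bFF and 1145 in mESC, and remained 9.52-fold lower in bovine transcripts (95% counting interval 8.13 to 11.2) although its ratio rose by 5.40 (SE 0.51, adjusted p = 0.000592).

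Sterol synthesis genes were lower on the bovine side. All 23 members had a shift below 0, against 3798 of 7482 over all members. The shift was at least 4-fold downward for 8 of the 23, and edgeR called 8 of 23 lower and 0 higher. The edgeR count rests on single libraries, with 0 lower without the 48 h library, 3 without the 72 h library and 13 without the 24 h library. The median ratio was -1.62 at 24 h and -0.15 in the controls, so the species stood apart at 24 h for genes at which bFF and mESC were close. The median bovine change was -1.56 and the median mouse change -0.21. MSMO1, a sterol demethylase, had 161 RPM in bovine and 329.7 RPM in mouse transcripts at 24 h, against 1401 in bFF and 529 in mESC, and its ratio fell (adjusted p = 0.0189, and 0.102 without the 48 h library). IDI1, an isomerase of the isoprenoid branch, had 47.4 RPM in bovine and 121 RPM in mouse transcripts, against 276 in bFF and 132 in mESC (adjusted p = 0.0069, and 0.0611 without the 48 h library). DHCR7, which makes cholesterol from its last precursor, had 0 bovine reads and 26.0 RPM in mouse transcripts, against 24.5 in bFF and 30.1 in mESC, and did not pass (adjusted p = 0.109).

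**Figure D3:**
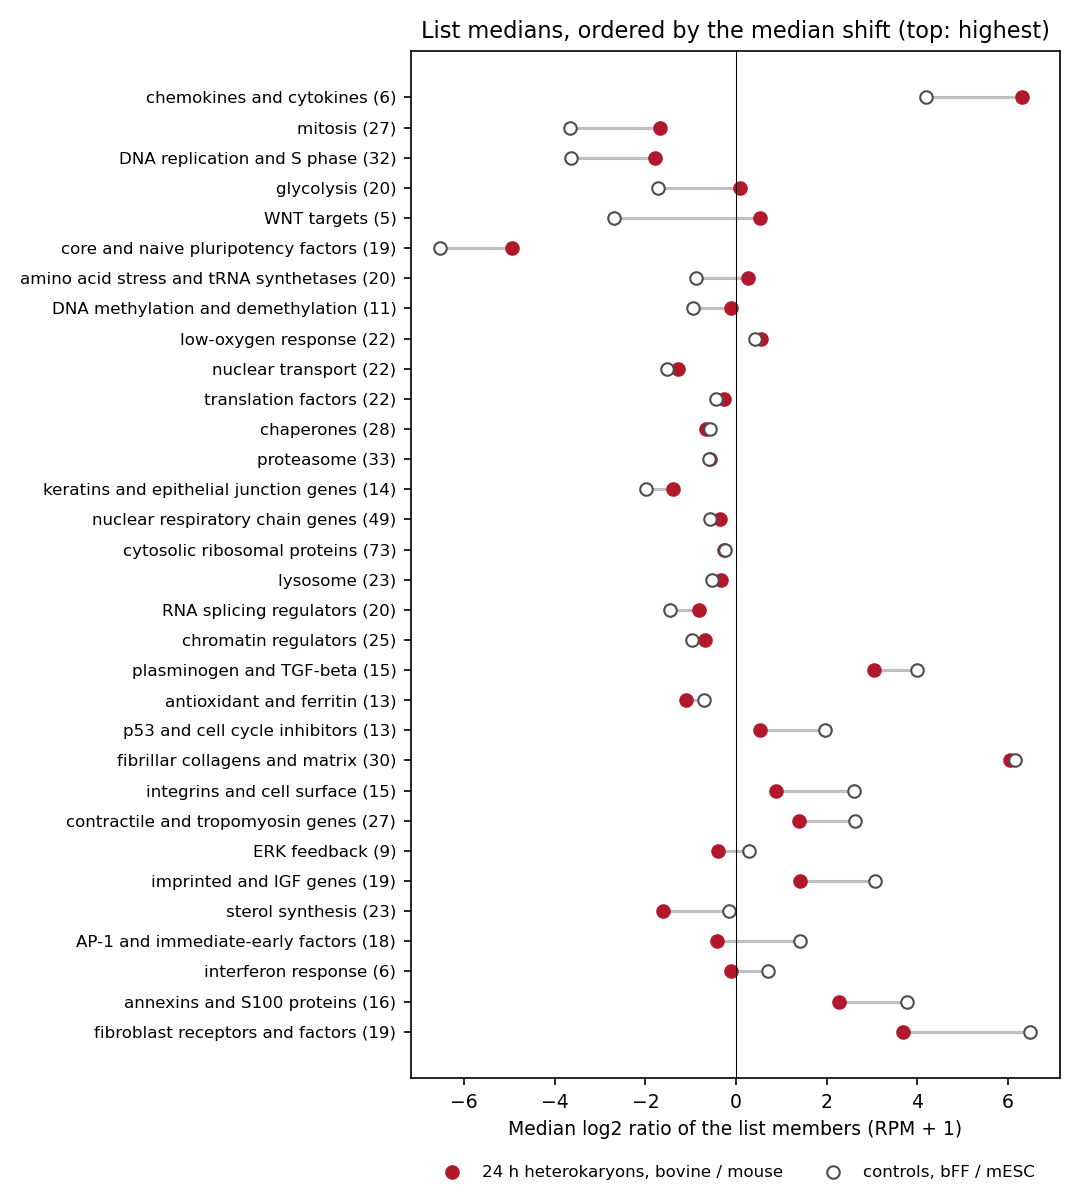
Median log2 ratio of RPM + 1 (horizontal axis) for each gene list with 5 or more members (vertical axis, number of members in brackets), for bovine over mouse transcripts at 24 h (filled) and bFF over mESC (open), ordered by the median shift with the highest on top. Glycolysis lies at 0.10 at 24 h against -1.73 in the controls, sterol synthesis lies at -1.62 at 24 h against -0.15, and ribosomal, respiratory and proteasome lists hardly differ.

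Immediate-early genes mostly had a lower bovine to mouse ratio at 24 h than in the controls. Shifts were below 0 in 14 of 18, against 3798 of 7482 over all members. Of the 18 AP-1 and immediate-early members, 8 shifted down and 0 up by at least 4-fold, edgeR called 3 lower and 1 higher (2 and 0 without the 48 h library), and the median ratio was -0.42 at 24 h against 1.40 in the controls. The median bovine change was 0.07 and the median mouse change 2.17. JUN, a subunit of AP-1, had 64.6 RPM in bovine and 68.6 RPM in mouse transcripts at 24 h, against 125 in bFF and 3.08 in mESC, and its ratio fell by 4.68 (SE 0.80, adjusted p = 0.0112). FOS, its partner, had 595 RPM in bovine and 872 RPM in mouse transcripts, against 906 in bFF and 147 in mESC (adjusted p = 0.0108, and 0.0709 without the 48 h library). EGR1, an early growth response factor, had 38.8 RPM in bovine and 170.0 RPM in mouse transcripts, against 105 in bFF and 31.8 in mESC (adjusted p = 0.00814). KLF10 was the member called higher, with 114 RPM in bovine and 100.4 RPM in mouse transcripts, against 39.0 in bFF and 137 in mESC (adjusted p = 0.0376, and 0.186 without the 48 h library, and 0.0636 without the 72 h library, and 0.0593 with the library as a block). The mESC control had been kept with a MEK inhibitor and the heterokaryons had not, and fusion and this change of medium cannot be told apart.

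Keratins of simple epithelia behaved alike. KRT18 (bovine chromosome 5, start 27171925; mouse chromosome 15, start 102028216) had 68.9 RPM in bovine and 100.4 RPM in mouse transcripts at 24 h, against 334 in bFF and 10.3 in mESC. The 24 h log2 changes were -2.26 for bovine and 3.17 for mouse transcripts, and the ratio fell by 5.70 (SE 0.74, adjusted p = 0.00335). Its partner KRT8 had 659 RPM in bovine and 184 RPM in mouse transcripts, against 1632 in bFF and 25.3 in mESC (adjusted p = 0.0202, and 0.0709 without the 48 h library). KRT19 had 541 RPM in bovine and 377 RPM in mouse transcripts, against 1249 in bFF and 24.3 in mESC (adjusted p = 0.0183). These were the 3 genes called among 15 tested on the list of keratins and epithelial junctions, all lower, against 1.06% of all genes tested. The list as a whole did not move 1 way. Of its 14 members 3 shifted up and 3 down by at least 4-fold. Shifts were above 0 for 8 and below 0 for 6, with a median of 0.13. The junction genes CDH1 (E-cadherin) and CLDN4 (a claudin) kept mouse to bovine excesses, with ratios of -3.63 and -7.13 at 24 h and -3.14 and -6.62 in the controls.

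Of the 16 annexins, S100 proteins and galectins, 12 stood above mESC in mouse transcripts at 24 h and 4 below it. At 24 h 9 were at least 4-fold higher in bovine transcripts, against 11 in bFF, and the median ratio was 2.28 against 3.78. Bovine transcripts hardly differed from bFF, with a median change of -0.12, while the median mouse change was 1.59. Over all members both medians were 0. ANXA2, a membrane-binding annexin, had 5816 RPM in bovine and 1031 RPM in mouse transcripts, against 7094 in bFF and 92.4 in mESC, and was the 1 member called (adjusted p = 0.0272, and 0.102 without the 48 h library). LGALS3, galectin 3, had 3142 RPM in bovine and 331 RPM in mouse transcripts, against 2166 in bFF and 9.59 in mESC (adjusted p = 0.149). ANXA3 had 59.2 RPM in bovine and 70.0 RPM in mouse transcripts, against 197 in bFF and 1.03 in mESC (adjusted p = 0.0557). The median shift of the list was -1.79, -0.34 and -0.14 at 24, 48 and 72 h.

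**Figure D4:**
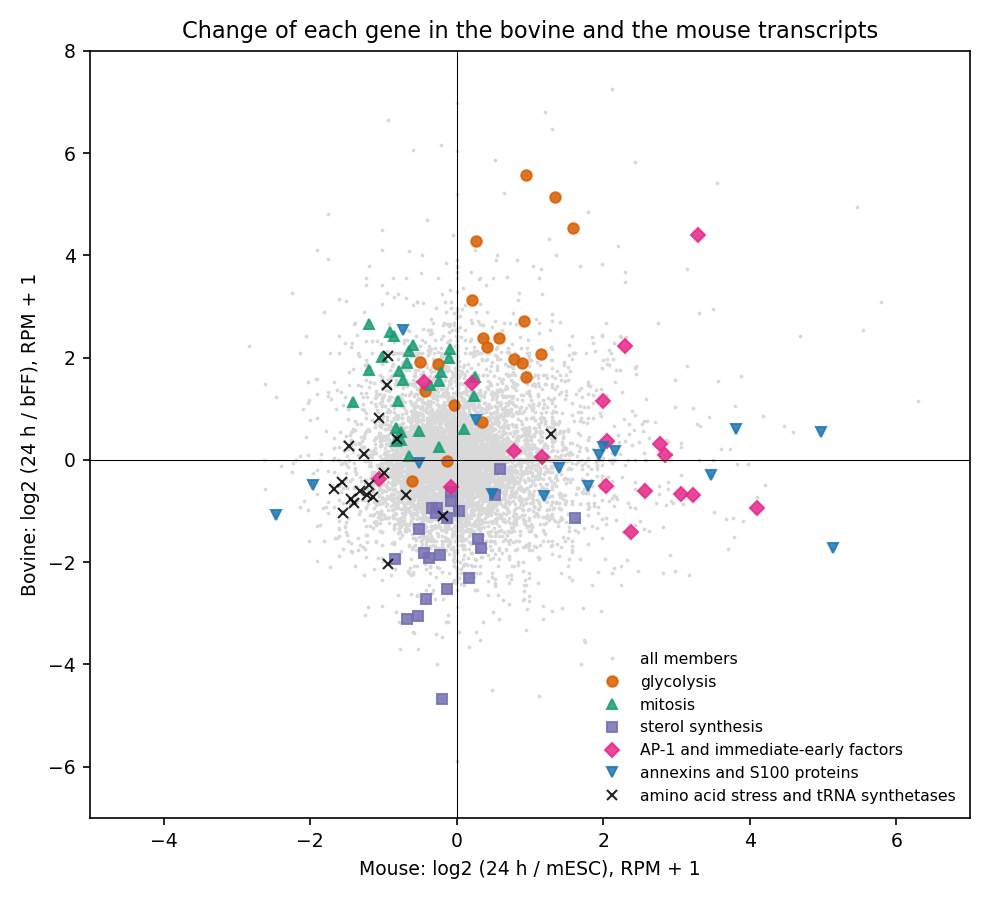
Each point is a gene, with the log2 change of its bovine transcripts at 24 h against bFF on the vertical axis and of its mouse transcripts at 24 h against mESC on the horizontal axis (RPM + 1; 1 gene lies outside the axes); grey points are all members and coloured symbols 6 gene lists. Glycolysis genes sit high, sterol genes low along the vertical axis, immediate-early genes and annexins spread to the right, and mitosis genes lie up and to the left.

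Imprinted and growth factor genes of the IGF system mostly had shifts below 0. Of 19 members 18 had a shift below 0, against 3798 of 7482 over all members. The shift was at least 4-fold downward for 8 of the 19. edgeR called 3 of 21 tested lower and 0 higher (1 lower without the 48 h library, 10 without the 24 h library). H19, a long non-coding RNA, had 251 RPM in bovine and 4.41 RPM in mouse transcripts at 24 h, against 483 in bFF and 0 in mESC. IGF2, the growth factor gene beside it, had 860.1 RPM in bovine and 3.43 RPM in mouse transcripts, against 1382 in bFF and 0 in mESC. Both remained bovine, with 24 h ratios of 5.54 for H19 and 7.60 for IGF2, and neither passed the test (adjusted p = 0.251 and 0.117; with the library as a block, IGF2 had 0.0355). PEG10, a retrotransposon-derived imprinted gene, had 30.1 RPM in bovine and 42.6 RPM in mouse transcripts, against 42.6 in bFF and 1.37 in mESC (adjusted p = 0.0274, and 0.0709 without the 48 h library).

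Several secreted inflammatory genes stood far above bFF in bovine transcripts. On the chemokine and cytokine list 6 of 13 shared genes were members, and 7 of the 13 had no mouse reads at 24 h. All 6 members were at least 4-fold higher in bovine transcripts at 24 h, and 4 were in bFF. Over all members the shares were 12.9% and 15.5%. A gene without mouse reads is a member only through its bovine level, so the rule itself favours such a count. CXCL2, a neutrophil chemokine, had 531 RPM in bovine and 0 reads in mouse transcripts at 24 h, against 3.21 in bFF and 0 in mESC, so it was at least 361-fold higher in bovine transcripts by the floor of 3 mouse reads. IL6 had 103 RPM in bovine transcripts and 0 mouse reads, against 3.62 in bFF and 1.03 in mESC, and was called higher (adjusted p = 0.0344, and 0.0709 without the 48 h library). On the chemokine and cytokine list edgeR called 1 of 7 tested higher and 1 lower, and without the 48 h library 0. The lower call was CXCL10, an interferon-induced chemokine that reached 10 RPM in neither species and so is not a member (adjusted p = 0.0449, and 1 without the 24 h library, 0.0709 without the 48 h library and 0.0541 without the 72 h library). CCL2, a monocyte chemokine, differed from these, since both species stood higher: 2688 RPM in bovine and 43.1 RPM in mouse transcripts at 24 h, against 86.0 in bFF and 0 in mESC. The 15 members of the plasminogen and TGF-beta list had a median bovine change of 0.72. edgeR called 0 higher and 2 lower (ID2 and TGFBR2, neither without the 48 h or the 72 h library), against 1.72% and 1.06% of all genes tested. PLAUR, the urokinase receptor, had 1797 RPM in bovine and 119 RPM in mouse transcripts, against 41.4 in bFF and 9.24 in mESC. The shifts of CCL2 and PLAUR did not pass the test (adjusted p = 0.827 and 0.157).

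CCL2, PLAUR and NDUFA4L2 were among 23 genes at least 4-fold above their own control in both species at 24 h. The number at least 4-fold higher was 342 for bovine and 167 for mouse transcripts, and at least 4-fold lower 165 for bovine and 26 for mouse transcripts. The rule for members leaves little room for a gene 4-fold lower in both, and 0 were. The 23 included IER3, an early response gene against apoptosis, with 1698 RPM in bovine and 257 RPM in mouse transcripts, against 79.6 in bFF and 25.3 in mESC. CRYAB, a small heat shock protein, had 50.6 RPM in bovine and 161 RPM in mouse transcripts, against 6.03 in bFF and 15.4 in mESC. ID1, an inhibitor of differentiation factors, had 475 RPM in bovine and 189.6 RPM in mouse transcripts, against 81.2 in bFF and 3.08 in mESC. Opposite moves of at least 4-fold were seen in 12 genes: bovine higher and mouse lower for F3, IL1RAP, RASD1 and RBAK, and bovine lower and mouse higher for CITED1, HSPB2, KLK10, KRT18, PRRX1, RAB15, SGCE and TPM2. In PRRX1 all 14 mouse reads were estimated as wrongly assigned, and in IL1RAP 33.5% of the bovine reads. These genes were chosen by their values at 24 h.

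Most amino acid stress genes and tRNA synthetases had mouse values below mESC. At 24 h 13 of 20 members stood below bFF in bovine and 19 of 20 below mESC in mouse transcripts, and neither species' own change was tested. The median change over 20 members was -0.53 for bovine and -1.17 for mouse transcripts, against 0 for each over all members. The median ratio was 0.27 at 24 h against -0.88 in the controls. ASNS, asparagine synthetase, had 361 RPM in bovine and 1417 RPM in mouse transcripts, against 579 in bFF and 3303 in mESC. PSAT1, of serine synthesis, had 298 RPM in bovine and 240.0 RPM in mouse transcripts, against 612 in bFF and 706 in mESC. Only SHMT2, a mitochondrial folate enzyme, was called on the ratio (adjusted p = 0.024, and 0.117 without the 48 h library), with 245 RPM in bovine and 209 RPM in mouse transcripts, against 88.0 in bFF and 405 in mESC.

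Among antioxidant and iron storage genes, calls went both ways. The median ratio of 13 members was -1.10 at 24 h and -0.71 in the controls. edgeR called 1 higher and 2 lower, against 1.72% and 1.06% of all genes tested, with 0 called without the 48 h library. FTH1, the ferritin heavy chain, had 5183 RPM in bovine and 1892 RPM in mouse transcripts at 24 h, against 16506 in bFF and 1821 in mESC (adjusted p = 0.0124, and 0.122 without the 48 h library). GPX1, a glutathione peroxidase, had 999 RPM in bovine and 2946 RPM in mouse transcripts, against 1023 in bFF and 933 in mESC (adjusted p = 0.0348, and 0.183 without the 48 h library, and 0.0607 without the 72 h library). The lower ratio of FTH1 lay in the bovine and that of GPX1 in the mouse transcripts. PRDX1, a peroxiredoxin, had 4666 RPM in bovine and 5052 RPM in mouse transcripts, against 1882 in bFF and 5119.5 in mESC, and was called higher (adjusted p = 0.0378, and 0.143 without the 48 h library, and 0.0921 without the 72 h library).

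Ribosomal protein, respiratory chain and proteasome genes stood close in the 2 species before and after fusion. Over all members 45.2% lay within 2-fold at 24 h and 39.5% in the controls. Of 73 ribosomal protein genes, 59 lay within 2-fold at 24 h and 56 in the controls, with a median shift of 0.07 and 0 genes called by edgeR. Nuclear respiratory chain genes had 38 of 49 within 2-fold at 24 h and 33 in the controls, with a median shift of 0.12 and 0 called. Proteasome genes had 27 of 33 within 2-fold at 24 h and 21 in the controls, with a median shift of 0.20 and 0 called. Chaperones had a median shift of 0.24 with 1 of 28 called, translation factors 0.24 with 0 of 22 called, and lysosomal genes 0.03 with 0 of 23 called. Within 2-fold lay 15 of 28 chaperones at 24 h and 12 in the controls. For translation factors these counts were 16 and 15 of 22, and for lysosomal genes 12 and 12 of 23. At an unadjusted edgeR p under 0.05 stood 4 ribosomal, 4 respiratory, 11 proteasome, 7 chaperone, 6 translation and 2 lysosomal genes. DESeq2 called 0, 1, 2, 1, 1 and 0 genes on these lists. Without the 24 h library edgeR called 3 ribosomal genes lower, 3 respiratory genes higher, 5 proteasome genes higher and 2 lower, 2 translation factors higher, 4 chaperones higher, and 1 lysosomal gene higher and 1 lower. For chromatin regulators the median shift was -0.05 and for splicing regulators 0.03, and the single gene called on each list, MTF2 and SRSF2, had 88.7% and 62.2% of its bovine reads estimated as wrongly assigned.

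The genes differed in their course over the later times. SLC2A3 had a ratio of -4.27 in the controls, -0.25 at 24 h, 0.37 at 48 h and 0.56 at 72 h. CKB had -8.67, -1.07, -2.83 and -2.98 at the same points, and POU5F1 -8.03, -2.95, -5.49 and -5.53. COL1A2 stayed at 12.77, 11.89, 12.05 and 12.16. For ANXA3 the ratio was 6.61 in the controls, -0.24 at 24 h, 2.25 at 48 h and 3.54 at 72 h, and for TAGLN 9.45, 5.51, 8.94 and 9.68. Over the 7482 genes the ratio had an SD of 2.20 at 24 h, 2.28 at 48 h and 2.27 at 72 h, against 2.41 in the controls. All times are set against the same 2 controls, and the members were chosen on their 24 h level.

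**Figure D5:**
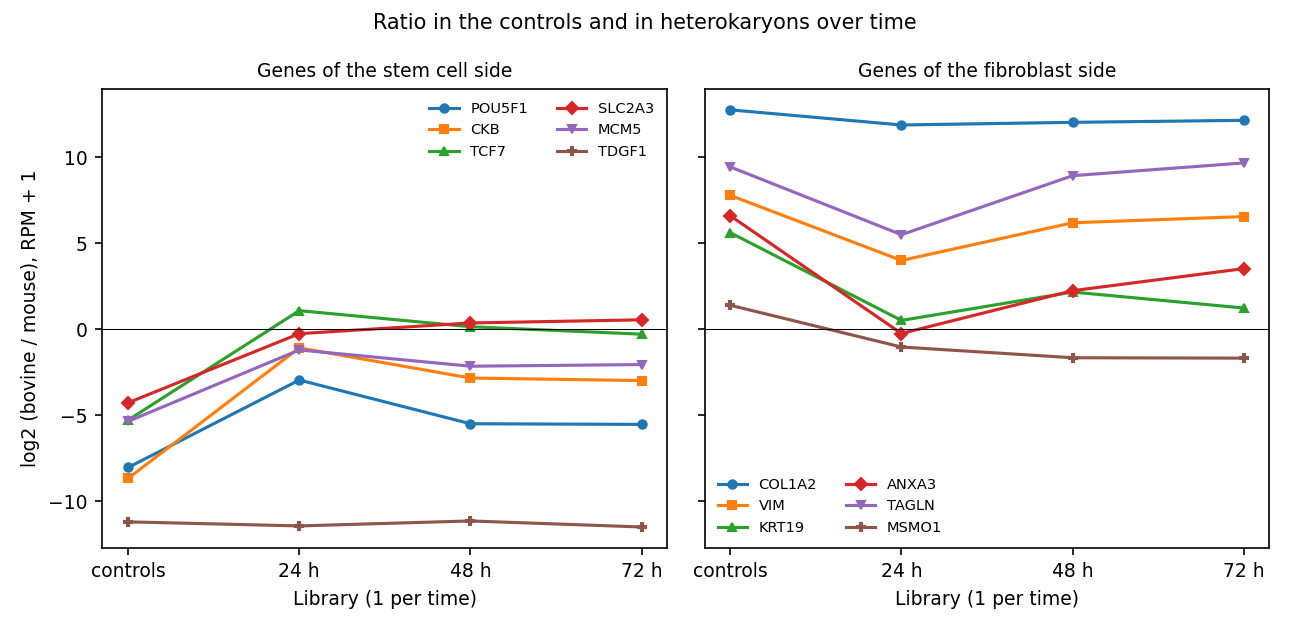
Log2 ratio of bovine to mouse transcripts (vertical axis, RPM + 1) in the controls (bFF over mESC) and in heterokaryons at 24, 48 and 72 h (horizontal axis, 1 library each), for 6 genes higher in mESC (left) and 6 higher in bFF (right). SLC2A3 stays near 0 from 24 h on and TDGF1 and COL1A2 keep their ends, while POU5F1 and CKB are highest at 24 h and ANXA3 and TAGLN lowest at 24 h.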

How the data were processed

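Per the labels, poly(A) RNA of 200 sorted cells per library was amplified with SMART-Seq v4 (14 cycles). The authors deposited read counts per RefSeq transcript in a bovine and a mouse table, with RPM beside them; per the file headers these are reads, and RPM equalled count over column total, so the counts were used. The submitters' processing notes name bosTau8, GRCm38 and mm10; how reads were aligned, counted and split by species is not given in the sources used here. No count equals 1, and a printed 0 can therefore mean 1 read. A printed start is the lowest start coordinate among a gene's transcripts, counted from 1, whatever the strand. CKB in both species and bovine KRT18 lie on the minus strand, so their printed start need not be where transcription begins. Names turned into spreadsheet dates were restored by RefSeq number (23 of 23 bovine, 57 of 60 mouse), a row of totals was dropped, and transcripts were summed by name, to 13921 bovine and 24540 mouse genes. Orthology rests on the shared name alone, counting by strand is not stated, and genes with near-identical copies, such as GAPDH, keratins and ribosomal proteins, are uncertain.

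Values are RPM over shared names, ratios log2(RPM + 1), which understates folds of low genes. Counting intervals are at 95% (Clopper-Pearson, or a normal interval on log counts + 0.5 for shifts, whose pseudocount differs from that of the printed shift) and cover counting error only; folds against 0 use a floor of 3 reads in the library. Wrongly assigned reads were estimated from the other species' control column, scaled to that species' 24 h reads, and can exceed 100% where the source gene was lower at 24 h. The 8 table columns of the 3 heterokaryon libraries and 2 controls entered edgeR 4.0.16 in R 4.3.3 (10 CPM or more in 1 column, TMM, Benjamini-Hochberg). DESeq2 1.42.0 was the alternative. The SE printed with an edgeR value is the absolute fitted log2 difference divided by the square root of the F statistic. It is approximate and was not taken from the fit itself. On simulated data for that interaction (8120 genes, 200 changed) 47% of 4-fold and 100% of 16-fold changes were recovered and 5 of 7157 unchanged genes called, if the controls vary like the heterokaryons. The simulation gave a gene the same base level in all columns, changed only genes above a minimum mean and used 1 common dispersion (0.0556). These shares therefore do not extend to genes low or absent in 1 species. CXCL2, without mouse reads, was not called at a fitted difference of 5.98. Bovine and mouse columns of 1 heterokaryon library come from the same cells, so the library was also fitted as a block. Their deviations correlated at 0.005, 0.012 and 0.042.

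The members, the 36 gene lists and the tests were chosen with earlier results of these data known. The rule for named genes took POU5F1, SOX2 and NANOG, and, at 50 RPM with under 10% wrongly assigned reads in the higher species, the 8 highest and 8 lowest ratios and shifts, the 6 genes highest in bFF and the 6 highest in mESC within 2-fold at 24 h, 6 that turned round, and per list the 3 largest ratios and 2 largest shifts. Further genes in the text were chosen after their values were seen.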

Additional observations from a re-analysis of the deposited data

Results flagged for a closer look

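The edgeR interaction test asks whether the change after fusion differs between bovine and mouse transcripts, and 31 genes under the naming rule passed it (adjusted p under 0.05, the spread being that between heterokaryon times). The values are the fitted log2 differences between the bovine and the mouse change over 24, 48 and 72 h. Each group holds 1 library.

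The bovine change exceeded the mouse change by 6.91 for CKB, 9.60 for TCF7, 9.22 for ANKRD37, 8.85 for IL6 and 5.40 for UPP1. TCF7 and ANKRD37 had 0 bFF reads, and IL6 0 mouse reads at 24 h, so these sizes depend on the fit's prior count. Among transporters and metabolic genes it was 4.64 for SLC2A3, 3.41 for SLC2A1, 8.40 for SLC16A3 (0 bFF reads), 6.74 for NDUFA4L2 and 2.11 for SHMT2. Among cell division genes it was 3.83 for KIF2C, 2.75 for CDK2, 3.82 for MCM5, 2.17 for CDK1, 3.46 for CENPA and 3.78 for BUB1; 18.8% of the bovine KIF2C reads were estimated as wrongly assigned. It was 6.22 for TGFBI, 1.50 for CCT5, a chaperonin subunit, and 2.44 for TUBB3, a tubulin of neurons. For TFCP2L1 (7.76), MBD3 (2.22), MTF2 (2.14) and SRSF2 (2.07), the estimated wrong share of bovine reads was 162%, 39.3%, 88.7% and 62.2%.

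The bovine change lay below the mouse change by -5.70 for KRT18, -4.50 for KRT19, -4.68 for JUN, -2.61 for ID2, -4.74 for PEG10, -5.07 for COL4A1 and -3.88 for ATP13A3, a cation-transporting ATPase. For CDH11, a cadherin of mesenchymal cells, it was -9.33, and more mouse reads were estimated as wrongly assigned than its 26 reads at 24 h.

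Without the 48 h library, IL6, ATP13A3, CDK2, COL4A1, CDK1, CENPA, BUB1, CCT5, MBD3, MTF2, SRSF2, ID2, PEG10, SHMT2 and TUBB3 lost the call, with adjusted p of 0.0709 to 0.161. Without the 72 h library, ATP13A3 (adjusted p = 0.0771), CDK1 (0.0796), CENPA (0.0622), CCT5 (0.0728), ID2 (0.0541) and TUBB3 (0.109) lost it. With the library as a block, ATP13A3 (adjusted p = 0.0593) and TUBB3 (0.0854) lost it.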

How the results depend on the processing

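The fold counts follow the threshold, filter and pseudocount. They are given in the order bovine at least 4-fold above mouse at 24 h, mouse above bovine, ratio shifted up, ratio shifted down, high in bFF but within 2-fold at 24 h, and high in mESC but within 2-fold. A 2-fold threshold gave 1777, 2321, 1334, 1421, 573 and 681 genes. A filter of 50 RPM gave 508, 545, 199, 159, 60 and 71 genes. No filter on members gave 731 and 820 shifted genes and 300 and 294 within 2-fold. With a pseudocount of 5, 211 and 206 genes shifted, and 122 that were high in mESC came within 2-fold. Asking that the counting interval exclude 4-fold left 498 genes higher in mouse, 113 and 85 shifted, and 30 and 29 within 2-fold. Other scalings, names as deposited, the transcript with most reads and a pseudocount of 0.25 kept each count within 1.5 times, as did 2 alternatives chosen after seeing the data: a minimum in any of the 4 values, and members with under 10% wrongly assigned reads.

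edgeR's counts of ratios called higher and lower in heterokaryons rested on single libraries: leaving out the 24, 48 or 72 h library gave 21 to 406 called higher and 10 to 350 called lower. With the heterokaryon library as a block for the paired bovine and mouse columns the counts were 133 and 65. With wrongly assigned reads subtracted they were 99 and 52, with DESeq2 198 and 93, and with scaling by library totals 116 and 84. For MTF2, subtracting wrongly assigned reads turned the shift to -0.26. The causes were not tested. Few reads limit the low side of each ratio, and a shift whose low value is under 3 reads is a bound only.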
